A study of Homo sapiens with 3 samples.

Results

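The genes described here are the human topoisomerases, the enzyme class to which the bacterial targets of fluoroquinolone antibiotics belong. Members were all probe sets whose symbol in the platform annotation is TOP followed by a digit, which gave 8 of the 14884 genes with a named probe set, 1 probe set for each. Of these, 5 stand for the enzymes TOP2A, TOP2B, TOP1, TOP3A and TOP3B, 1 for TOP6BL, which encodes a topoisomerase VI B-like protein, and 2 for the pseudogenes TOP1P1 and TOP1P2. The mitochondrial topoisomerase gene TOP1MT had no named probe set and was not analysed here.

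The cells were MDA-MB-231, a human cell line established from a breast cancer without hormone receptors or HER2 (triple-negative). The cultures received 10 µM Mt-CFX, 10 µM CFX, or 1% DMSO as the solvent control, each for 72 h. The series title names ciprofloxacin, a fluoroquinolone, and Mt-CFX is known here by its code name alone. The labels state a DMSO content for the control only, so an effect of DMSO and an effect of a compound cannot be told apart in a difference from the control. Each group was 1 array, so no value below has a replicate error, no p-value was computed, and no difference could be set against the spread between cultures. Values are log2 expression values per probe set, on which a difference of 1.5-fold is 0.58, and differences are compound minus control or Mt-CFX minus CFX. Where a gene list is described, all genes means the 8868 protein-coding genes with at least 1 array at or above a floor of 3.89 log2, which is the median over all probe sets. On the control array the 5 named markers of a mesenchymal triple-negative line, among them VIM, AXL and EGFR, lay between 7.65 and 11.0 log2, while ESR1 was at 3.81 and PGR at 2.39 log2. The 5 named luminal epithelial markers were above the floor too, with KRT18 at 8.36, KRT8 at 5.83, GATA3 at 5.52, EPCAM at 5.37 and FOXA1 at 4.36 log2. The 5 named leukocyte, fibroblast and endothelial markers, CD14, DCN, LUM, PECAM1 and VWF, all stayed below 3.89 log2.

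Topoisomerases relieve the twisting and tangling that builds up in DNA during replication, transcription and chromosome segregation. Type I enzymes cut a single strand and let it rotate or pass, whereas type II enzymes cut both strands and pass another duplex through the gap. Drugs that poison a topoisomerase hold the enzyme on the cut DNA, and fluoroquinolones do so with the bacterial type II enzymes gyrase and topoisomerase IV. In human cells TOP2A is made mainly by dividing cells, peaks in G2 and mitosis and separates sister chromatids, while TOP2B is also made in cells that do not divide and acts in transcription.

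The type II genes TOP2A and TOP2B had different patterns over the 3 arrays. The RefSeq sequences upstream of their starts are shown first (GRCh38.p14), and a link between these sequences and the patterns was not tested. TOP2A is on chromosome 17, and the 250 bases before its start are chr17:40417897-40418146, minus strand. TOP2B is on chromosome 3, and the 250 bases before its outermost start are chr3:25664908-25665157, minus strand. Capitals mark CCAAT, the box bound by the factor NF-Y, and TTTGAA, a form of the cell cycle genes homology region, both searched on either strand, so that they also appear as ATTGG and TTCAAA.
TOP2A: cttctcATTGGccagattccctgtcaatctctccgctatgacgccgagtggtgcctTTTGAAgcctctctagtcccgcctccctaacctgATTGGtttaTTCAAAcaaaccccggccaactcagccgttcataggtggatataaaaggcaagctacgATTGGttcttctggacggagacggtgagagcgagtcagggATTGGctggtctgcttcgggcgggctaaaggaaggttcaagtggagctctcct
TOP2B: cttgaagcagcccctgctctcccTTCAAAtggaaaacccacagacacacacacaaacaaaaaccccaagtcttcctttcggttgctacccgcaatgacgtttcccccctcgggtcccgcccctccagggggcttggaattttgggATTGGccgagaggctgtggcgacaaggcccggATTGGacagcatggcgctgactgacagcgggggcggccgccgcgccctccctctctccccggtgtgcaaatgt

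The TOP2A sequence held 4 CCAAT matches, all on the opposite strand to the gene, and 2 TTTGAA matches, 1 on each strand. The TOP2B sequence held 2 CCAAT matches and 1 TTTGAA match, again all on the opposite strand, and the TTTGAA match began 227 bases before the start. No CCAAT or TTTGAA match overlapped another in either sequence. Over 22198 upstream windows of protein-coding genes of the same length, 32.7% held at least 1 CCAAT, 1.03% at least 4 and 10.5% at least 2. At least 1 TTTGAA was in 11.0% of the windows and at least 2 in 1.20%. The windows before TOP1, TOP3A and TOP3B held 0 matches of either motif, as did the window before an inner start of TOP2B. The TOP6BL window was not analysed here. A match is a description of the letters and not a measured binding site.

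**Figure D1:**
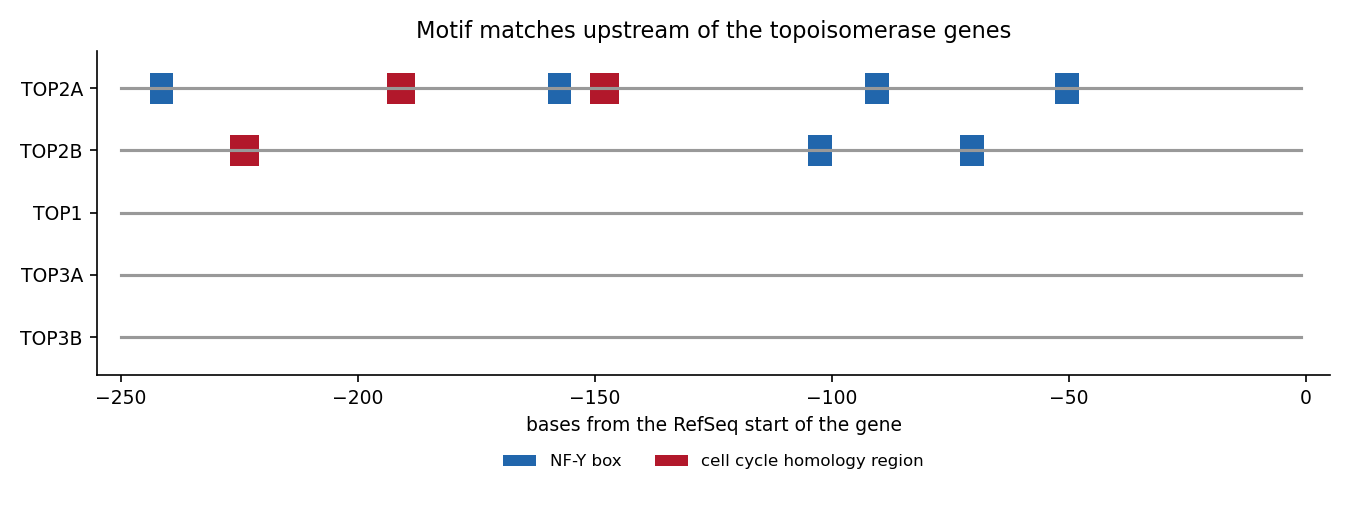
CCAAT and TTTGAA matches in the 250 bases before the outermost RefSeq start of 5 topoisomerase genes, in blue (NF-Y box) and red (cell cycle homology region); the x axis gives bases from the start and each bar is 1 match on either strand. TOP2A has 4 CCAAT and 2 TTTGAA matches, TOP2B has 2 and 1, and the windows of TOP1, TOP3A and TOP3B have 0 of either.

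TOP2A was lower with Mt-CFX than with the solvent and slightly higher with CFX, and it had the lowest Mt-CFX over control difference of the 6 protein-coding members. Its log2 value was 10.37 with Mt-CFX, 10.80 with CFX and 10.67 in the control. The Mt-CFX array was the low one, at 81.2% of the control level on the linear scale, and the CFX array the high one, at 109% of it. The log2 differences were −0.30 for Mt-CFX over control, 0.13 for CFX over control and −0.43 for Mt-CFX over CFX, the last a 1.35-fold lower level with Mt-CFX. Of all genes, 4.78% had a lower Mt-CFX over control difference than TOP2A, 7.35% a higher CFX over control difference, and 2.22% a lower Mt-CFX over CFX difference.

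TOP2B, the other type II gene, was at 8.36 log2 with Mt-CFX, 8.46 with CFX and 8.29 in the control. Both compounds gave a higher value than the solvent, and CFX the higher of them. The differences were 0.06 log2 for Mt-CFX over control, 0.17 for CFX over control and −0.11 for Mt-CFX over CFX. With CFX, TOP2B had the highest difference of the 6 protein-coding members, at 112% of the control level, and 4.80% of all genes had a higher one. Against TOP2B, the TOP2A difference from the control was lower by 0.36 log2 with Mt-CFX (−0.36 for TOP2A minus TOP2B) and close to it with CFX (−0.04). Set between the compounds, TOP2A minus TOP2B was −0.32 log2.

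**Figure D2:**
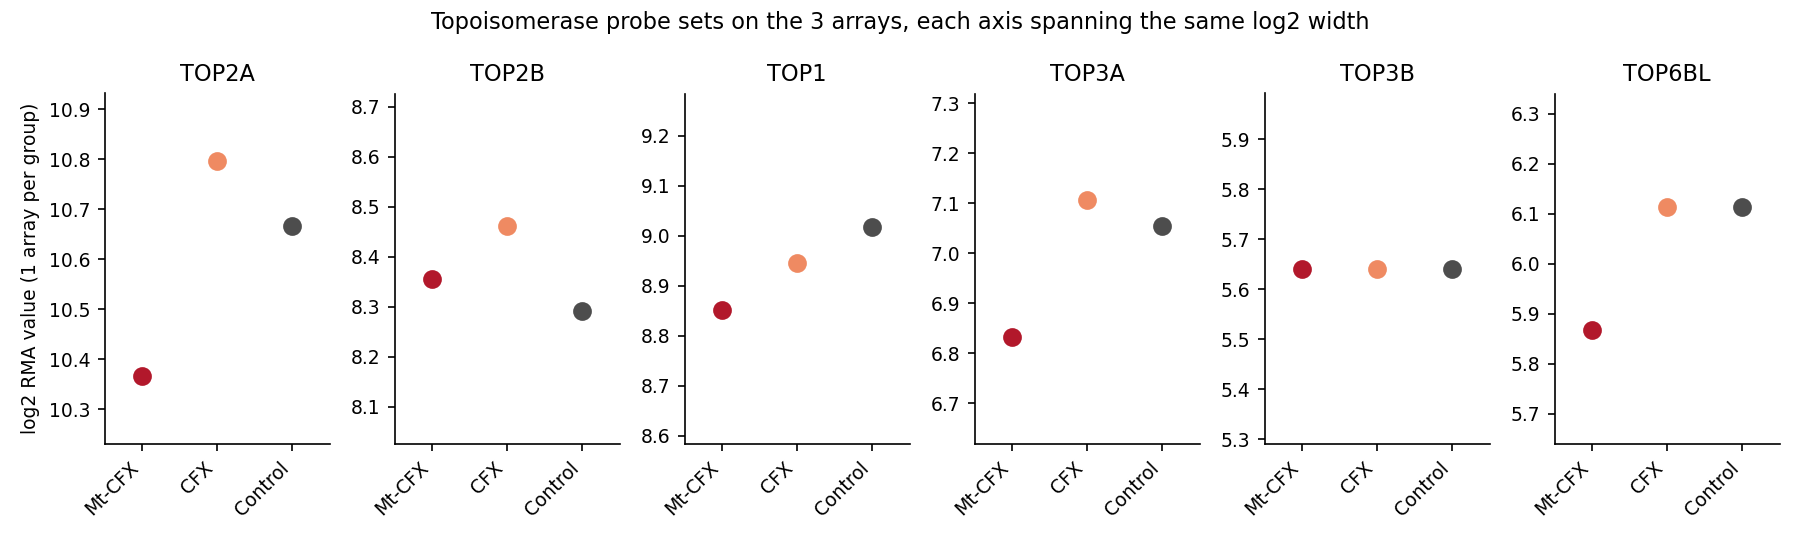
Log2 RMA value (y axis) of the 6 protein-coding members on the Mt-CFX, CFX and control arrays (1 point per array), with every panel spanning the same log2 width. TOP2A is lowest with Mt-CFX at 10.37, TOP2B is highest with CFX at 8.46, and TOP3B is at 5.64 on all 3 arrays.

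Among the type I enzymes, TOP1 and TOP3A were lower with Mt-CFX, and TOP3B had the same value throughout. TOP1, the type IB enzyme that relaxes DNA ahead of polymerases and is the target of camptothecins, was at 8.85 log2 with Mt-CFX, 8.95 with CFX and 9.02 in the control. It was the 1 member with a lower value under both compounds, with differences of −0.17 log2 for Mt-CFX over control and −0.07 for CFX over control. TOP3A, a type IA enzyme that resolves recombination intermediates with the BLM helicase and also acts in mitochondria, was at 6.83 with Mt-CFX, 7.11 with CFX and 7.06 in the control. Its differences were −0.22 log2 for Mt-CFX over control, 0.05 for CFX over control and −0.28 for Mt-CFX over CFX. The signs of the TOP3A differences were those of TOP2A in all 3 comparisons, with smaller sizes.

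TOP3B, a type IA enzyme that also acts on RNA, was at 5.64 log2 with Mt-CFX, with CFX and in the control. Exactly equal values are common in these data: 45.3% of all genes had 1 value on the 3 arrays, as did 47.1% of the genes in the middle of 5 equal groups by mean level, the group that holds TOP3B. An equal value therefore says little about whether TOP3B responded.

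TOP6BL takes part in making the DNA breaks of meiosis together with SPO11, and is related to a subunit of an archaeal type II enzyme. It was at 5.87 log2 with Mt-CFX, 6.11 with CFX and 6.11 in the control, a difference of −0.25 for Mt-CFX over either of the others. The CFX and control values were identical, as they were for 62.6% of genes in the level group of TOP6BL. This tie says little about a response to CFX. SPO11 itself was at 1.80 log2 on each array, below the floor. The pseudogenes TOP1P1 and TOP1P2, which are copies of the TOP1 transcript, were at 1.73 and 1.99 log2 on all 3 arrays and did not reach the floor. How far the probes of TOP1 read RNA from these copies was not tested.

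All 6 protein-coding members passed the floor, and more of them were lower than higher with Mt-CFX. With CFX more were higher than lower, as was so over all genes. No member reached 1.5-fold in any comparison. The share of all genes that reached 1.5-fold in either direction was 2.71% for Mt-CFX over control, 0.147% for CFX over control and 2.15% for Mt-CFX over CFX, so a count of 0 among 6 genes is near the background. With Mt-CFX, 4 members had lower values than in the control, 1 higher and 1 equal, with a median of −0.19 log2. Over all genes, the values were lower with Mt-CFX for 23.2%, higher for 23.9% and equal for 52.9%, with a median of 0.00.

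With CFX, 3 members had higher values than in the control, 1 lower and 2 equal, with a median of 0.03 log2, or 0.05 without TOP6BL. Over all genes, 25.8% were higher with CFX, 15% lower and 59.2% equal. Between the compounds, which were given at equal dose and for equal time, Mt-CFX had lower values than CFX for 5 members, higher for 0 and equal for 1, with a median of −0.18 log2, or −0.11 without TOP6BL. Over all genes, 25.2% of the Mt-CFX over CFX differences were below 0, 20.1% above and 54.7% equal to 0. With 1 array per compound no interval of these differences can be given.

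These shares depended on the level of the gene, and the topoisomerases were not spread evenly over levels. TOP2A, TOP2B and TOP1 were in the highest of 5 equal groups of genes by mean level, TOP3A in the next, and TOP3B and TOP6BL in the middle one. In the highest group, 35.7% of genes were lower with Mt-CFX than in the control and 33.3% higher, while 47.0% were higher with CFX and 16.6% lower. The shares higher and lower with CFX were 31.6% and 14.7% in the next group, and 21.9% and 15.5% in the middle one. The counts of 3 members higher and 1 lower with CFX are near these shares. Between the compounds, 44.0% of that group had lower values with Mt-CFX, against CFX, and 24.2% higher. The middle 95% of all Mt-CFX over control differences ran from −0.44 to 0.47 log2 and held all 6 members. TOP2A was the 1 member outside the middle 95% between the compounds, at −0.43 against a lower limit of −0.41 log2, but in its own level group the limits were −0.52 and 0.44 and held it. In CFX over control the limits over all genes were −0.19 and 0.23 and held all 6.

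**Figure D3:**
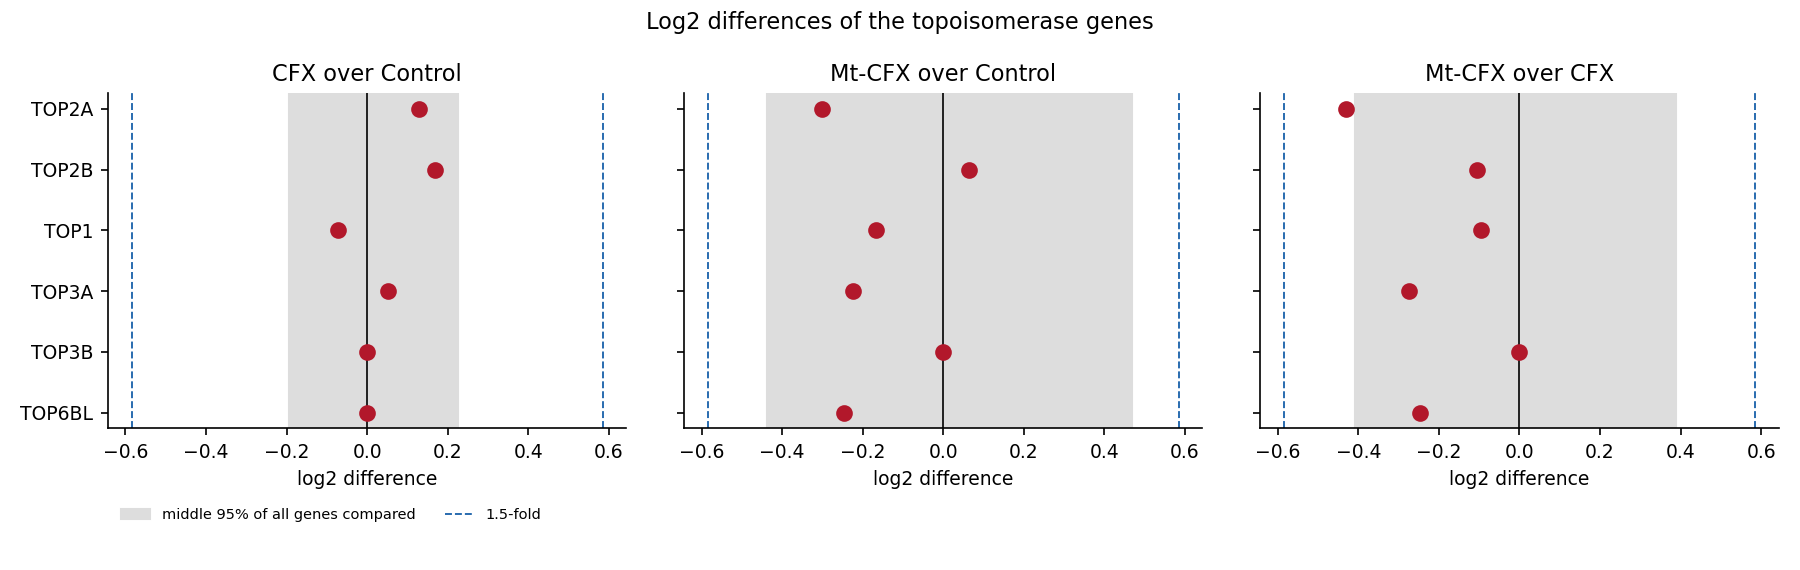
Log2 differences (x axis) of the 6 protein-coding members in the 3 comparisons; the grey band holds the middle 95% of the 8868 genes compared and dashed lines mark 1.5-fold. All members lie inside 1.5-fold, and TOP2A at −0.43 in Mt-CFX over CFX is the 1 point outside a grey band, though inside the limits of −0.52 and 0.44 for genes in its own level group.

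TOP2A belongs to the genes that cells switch on for division, and 13 of the 16 measured genes listed for G2 and mitosis also had lower values with Mt-CFX. The list had 20 genes. Of the measured ones 0 were higher with Mt-CFX than in the control and 3 were equal, with a median of −0.20 log2, which is above the −0.30 of TOP2A. Over all genes 23.2% were lower with Mt-CFX, and 35.7% in the highest level group. MKI67, the nuclear antigen used to count dividing cells, was at 9.13 log2 with Mt-CFX, 9.73 with CFX and 9.73 in the control, a Mt-CFX over control difference of −0.60. It was the 1 gene of this list past 1.5-fold, a size that 1.25% of all genes reached in the lower direction. KIF11, a kinesin that pushes the spindle poles apart, differed by −0.40, and the mitotic kinase gene AURKA by −0.30. These are the 3 genes of the list with the largest differences, and the 3 equal ones were AURKB, CCNB2 and CDK1.

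With CFX, 11 of the 16 G2 and mitosis genes were higher than in the control, 1 lower and 4 equal, with a median of 0.03 log2. The share higher with CFX was 25.8% over all genes and 47.0% in the highest level group. For Mt-CFX over CFX all 16 differences were below 0, with a median of −0.24 log2. The share below 0 was 25.2% over all genes and 44.0% in the highest level group. The topoisomerases were not in this list, and the lists share the same 3 arrays. In bulk RNA, a smaller share of dividing cells and less TOP2A RNA per dividing cell cannot be told apart. Of the 13 measured genes of this list with an upstream window, 12 held at least 1 CCAAT and 8 at least 1 TTTGAA. Over all windows the shares were 32.7% and 11.0%. Both motifs are marked in the TOP2A sequence and in the TOP2B sequence, and a link between motifs and differences was not tested. Among 13 replication fork genes with a window 10 held CCAAT and 0 TTTGAA, and among 8 genes for the repair of trapped topoisomerases 2 held CCAAT and 4 TTTGAA.

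Genes of the replication fork, where TOP1 and the type II enzymes remove twist, had a median Mt-CFX over control difference of −0.34 log2, below the −0.30 of TOP2A, while single genes lay on either side of that value. Of 27 listed genes 16 were measured, and 15 were lower than in the control and 1, TIPIN, was higher, with differences between −1.14 and 0.20 log2. The share lower with Mt-CFX was 23.2% over all genes, 35.7% in the highest level group and 27.2% in the next. FEN1, which trims the flaps of lagging strand fragments, was at 6.06 log2 with Mt-CFX, 6.98 with CFX and 7.20 in the control, and differed by −1.14 for Mt-CFX over control. The helicase subunit genes GINS2 and MCM4 differed by −0.90 and −0.54. With CFX, 12 of the 16 were higher than in the control, 3 lower and 1 equal, with a median of 0.04 log2. The share higher with CFX was 25.8% over all genes, 47.0% in the highest level group and 31.6% in the next. The share of all genes lower by at least 1.5-fold with Mt-CFX was 1.25%, and 2 of these 16 genes were, FEN1 and GINS2.

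Condensin and cohesin, the ring complexes that shape chromosomes alongside TOP2A, were measured in part. Of 8 condensin genes 2 were measured, and both were lower with Mt-CFX, as were 23.2% of all genes and 35.7% in the highest level group. SMC2, a core subunit, was at 7.81 log2 with Mt-CFX, 8.30 with CFX and 8.17 in the control, differences of −0.36 and 0.13 from the control. SMC4, its partner, differed by −0.16 with Mt-CFX and 0.03 with CFX.

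Of 12 genes of cohesin and its regulators 10 were measured, of which 4 were lower with Mt-CFX than in the control, 1 higher and 5 equal, with a median of 0.00. The share lower with Mt-CFX was 23.2% over all genes, 35.7% in the highest level group and 27.2% in the next. ESCO2, which acetylates cohesin during replication, differed by −0.32 log2 with Mt-CFX and 0.21 with CFX. The ring subunits SMC1A and SMC3 differed by −0.31 and −0.27 with Mt-CFX, while RAD21, another ring subunit, differed by 0.00.

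Genes that free DNA from a trapped topoisomerase, or repair the break it leaves, went in no common direction for Mt-CFX over control. Of 13 listed genes 9 were measured, and with Mt-CFX 3 were higher than in the control, 3 lower and 3 equal, with a median of 0.00. The shares over all genes were 23.9%, 23.2% and 52.9%. For Mt-CFX over CFX 1 was higher, 5 lower and 3 equal, with a median of −0.02 log2. The share below 0 was 25.2% over all genes and 44.0% in the highest level group. TDP2, the phosphodiesterase that removes TOP2 from DNA ends, had the same value of 7.75 log2 on each array. Such ties were seen for 45.3% of all genes and 22.4% of the highest level group, so a response of TDP2 cannot be judged. RAD50, of the nuclease complex that also clears TOP2 from ends, was at 8.15 log2 with Mt-CFX, 8.11 with CFX and 7.91 in the control, differences of 0.23 and 0.19 from the control. MRE11 and NBN, of the same complex, differed by −0.09 and 0.05 with Mt-CFX and by 0.16 and 0.13 with CFX. PARP1, a sensor of strand breaks, differed by −0.23 with Mt-CFX and 0.07 with CFX, and ZNF451, whose protein helps TDP2 reach TOP2, by −0.12 and 0.00.

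With CFX, 5 of the 9 genes were higher than in the control, 0 lower and 4 equal, with a median of 0.07 log2. Higher values with CFX were common: 25.8% over all genes, 47.0% in the highest level group and 31.6% in the next. TDP1, the phosphodiesterase for TOP1, was 0.08 log2 higher with Mt-CFX and 0.10 higher with CFX. Of 8 genes of non-homologous end joining, the main repair route for TOP2 breaks, 4 were measured. XRCC6 and XRCC5, which encode the Ku heterodimer, differed by −0.30 and −0.10 with Mt-CFX, and DCLRE1C, the nuclease Artemis, by 0.08. Their CFX over control differences were −0.10, 0.10 and −0.03. The median of the 4 was −0.05 log2 with Mt-CFX and −0.02 with CFX.

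Of 5 listed partners of the type IA enzymes 2 were measured. TDRD3, the scaffold of TOP3B, was at 5.45 log2 on all 3 arrays, and FMR1, the fragile X protein gene, was 0.14 higher with either compound than in the control. Of 12 genes of mitochondrial DNA maintenance, the process in which TOP3A has a mitochondrial role, 5 were measured, with a median of 0.00 in each comparison. At least 3 of the 5 had equal values in each comparison, so this median says little. DNA2, a nuclease and helicase of nucleus and mitochondria, was at 6.83 log2 with Mt-CFX, 7.48 with CFX and 7.27 in the control. Its Mt-CFX over CFX difference was −0.66, past 1.5-fold, a size that 2.15% of all genes reached in either direction. From the control DNA2 differed by −0.44 with Mt-CFX and 0.21 with CFX. MTERF1 differed by 0.01 with Mt-CFX, and TWNK, the mitochondrial helicase gene, by 0.00. TOPBP1, whose product binds TOP2B and activates the kinase ATR but is no topoisomerase, was at 7.44 log2 on each array, and TOPORS was not analysed here. Equal values on the 3 arrays, seen for 45.3% of all genes, say little about a response of TDRD3, TWNK or TOPBP1.

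**Figure D4:**
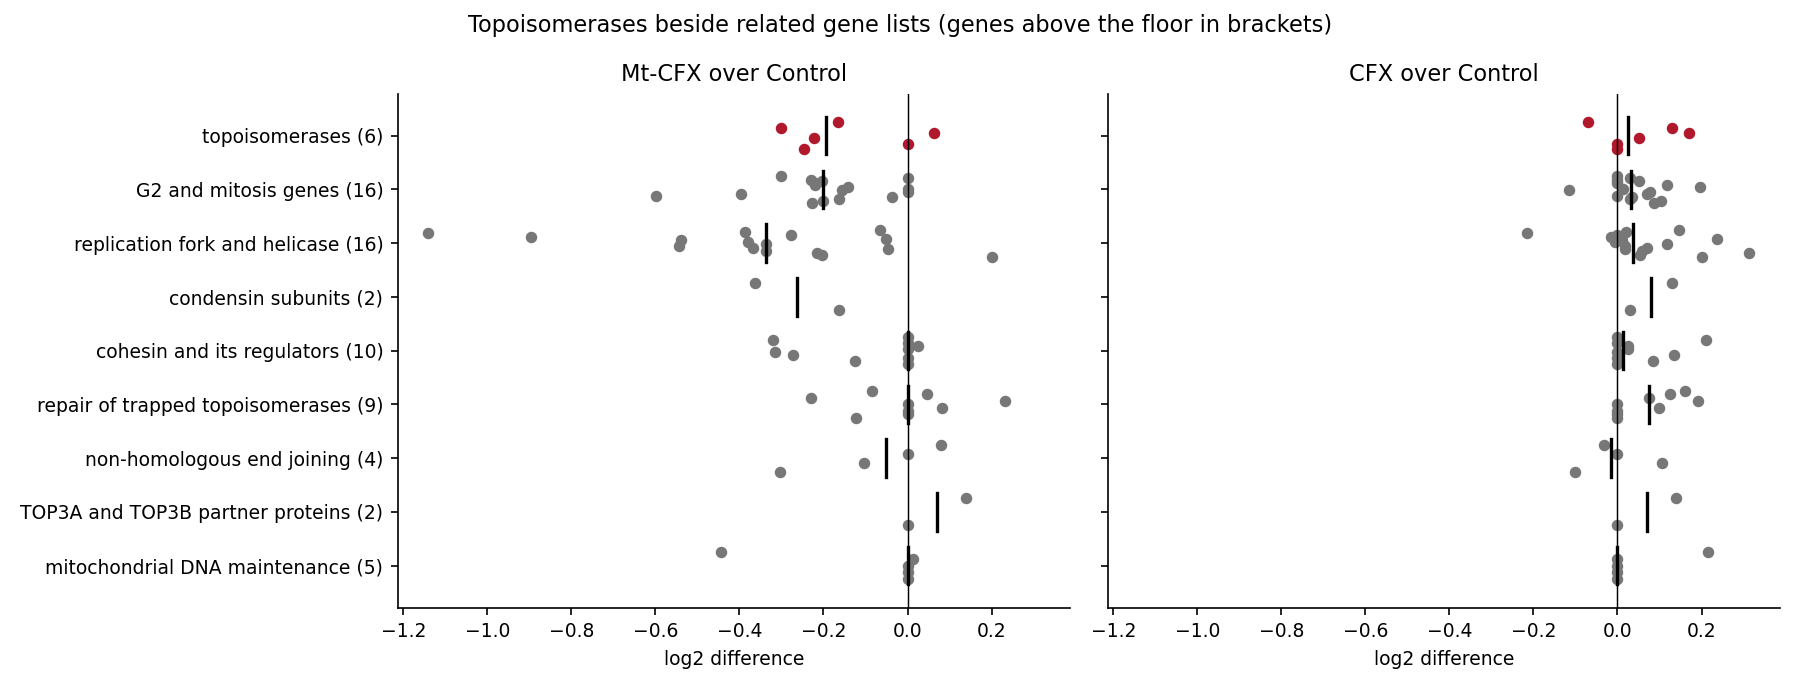
Log2 differences (x axis) for Mt-CFX over control and CFX over control; each point is a gene above the floor, the black bar is the list's median, and red points are the 6 topoisomerase genes. With Mt-CFX the medians are −0.19 for the topoisomerases, −0.20 for G2 and mitosis genes and −0.34 for the replication fork; with CFX they are 0.03, 0.03 and 0.04.

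The genes whose patterns came closest to those of the type II genes were named by the distance between their 2 differences from the control, over the 3 arrays. For TOP2A, 4 of the 5 closest were EXO1, an exonuclease of mismatch repair and end resection, DMAC2, RECQL4, a RecQ helicase, and DLAT, a subunit of pyruvate dehydrogenase. EXO1 was at 7.46 log2 with Mt-CFX, 7.89 with CFX and 7.77 in the control, and lay 0.0068 log2 from TOP2A. All 5 lay within 0.022 log2, and 13 genes lay within 0.05.

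For TOP2B the closest were KLHL5, CUL1, the cullin scaffold of a ubiquitin ligase, IP6K3, an inositol phosphate kinase, METTL3, the catalytic subunit of the RNA m6A methyltransferase, and CRLF3. KLHL5 was at 7.42 log2 with Mt-CFX, 7.51 with CFX and 7.35 in the control, and lay 0.0061 log2 from TOP2B. Within 0.05 of TOP2B there were 28 genes and within 0.1 there were 430, against 65 within 0.1 of TOP2A. With 1 array per group, the names describe these 3 arrays only.

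**Figure D5:**
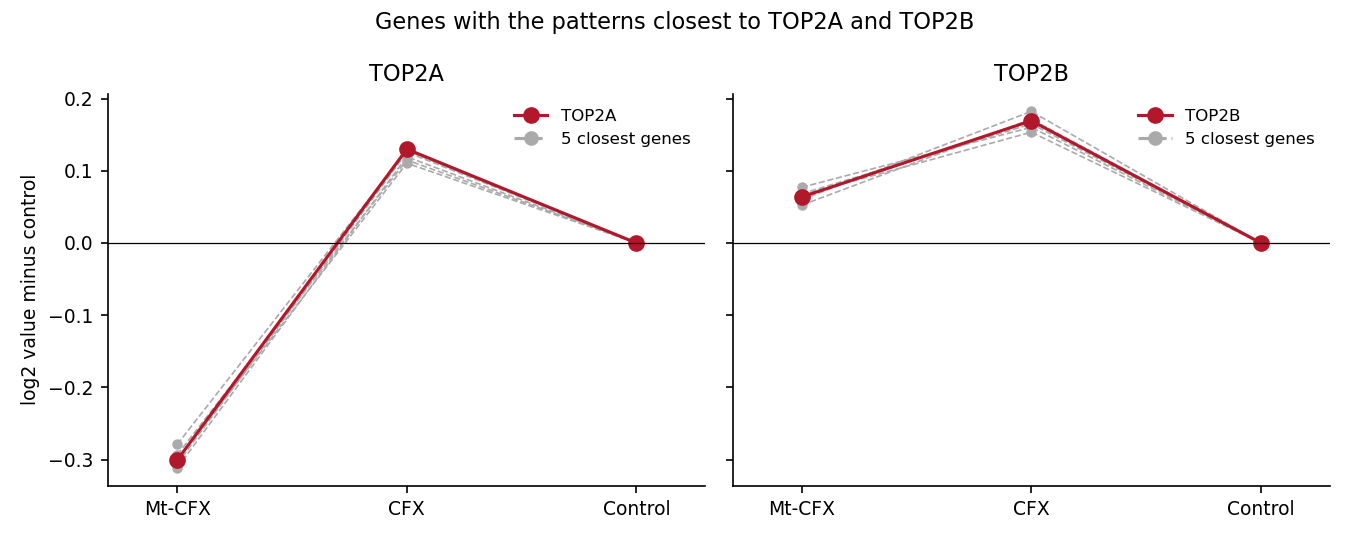
Log2 value minus the control value (y axis) on the Mt-CFX, CFX and control arrays for TOP2A and TOP2B (red) and the 5 genes closest to each (grey dashed). TOP2A and its 5 closest genes are near −0.30 with Mt-CFX and 0.13 with CFX, and TOP2B and its 5 near 0.06 and 0.17.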

How the data were processed

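RNA extracted from MDA-MB-231 cultures was hybridised as biotin-labelled sense cDNA to whole-transcript GeneChip arrays, 1 per group. The deposited values are log2 expression values per probe set, made by the authors; the submitters' processing notes name RMA and Affymetrix Expression Console, and version, annotation release and build are not given in the sources used here. RMA gives the arrays near-equal distributions, so differences in total RNA are not visible. Sorted values of any 2 arrays lay at most 0.245 log2 apart. The number of arrays limits the precision.

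Symbols came from the platform annotation, which named 16098 of 53617 probe sets, and were matched to RefSeq by gene ID. A gene with several probe sets was represented by its brightest probe set, by the mean of the 3 arrays, and protein-coding genes were kept when the highest array reached the median of all probe sets. Differences of log2 values were counted at 1.5-fold, with 2-fold as an alternative. No test was made. Other alternatives were averaging the probe sets of a gene, other floors, re-centring by a lowess curve with a span of 0.3 or by the median difference, and the 5 enzymes alone, the last chosen after seeing the data. Named genes were every member, TOPBP1 and TOPORS, list members past 1.5-fold, the 3 members of each list with the largest Mt-CFX over control difference, and the 5 closest genes to TOP2A and TOP2B, of which 1 for TOP2A is not reported here. SPO11, TDP1, TDP2, TIPIN, RAD21, MRE11, NBN, AURKB, CCNB2, CDK1 and the neighbouring genes were named after their values were seen. The members and the 9 gene lists were chosen with earlier results of these data known. Motifs were counted in the 250 bases upstream of RefSeq starts (GRCh38.p14); the first listed window of a gene was used for lists, and the table is not complete. Counting, distances and motif search were tested on simulated data. Python 3.11.15, numpy 2.4.6, pandas 2.3.3, statsmodels 0.14.6 and matplotlib 3.10.9 were used.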

Additional observations from a re-analysis of the deposited data

How the results depend on the processing

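The count of members past 1.5-fold stayed at 0, as it had to at the stricter 2-fold. The direction of every median and every TOP2A and TOP2B difference held under each alternative that was run. The floors, the mean of probe sets and the median re-centring moved none of these values, since each member has 1 probe set, all 6 lie above the 75th percentile of all probe sets and the median difference of all probe sets is 0. The lowess curve moved them by at most 0.028 log2. Without TOP6BL, the median of the 5 enzymes for Mt-CFX over CFX was −0.11 log2, against −0.18 with it, and for CFX over control it was 0.05 against 0.03, both changes of more than 1.5 times that come from leaving out a gene. No paired analysis was possible because each group had 1 array. Arrays could not be left out in turn for the same reason. The lack of replicates, the many equal values and the use of RMA output without probe-level data limit what small differences can show.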

Other observations

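The genes next to TOP2A on chromosome 17 at higher coordinates had larger Mt-CFX over control differences than TOP2A itself. IGFBP4, which encodes a binding protein of insulin-like growth factors, was at 8.82 log2 with Mt-CFX, 9.96 with CFX and 10.11 in the control, a Mt-CFX over control difference of −1.29 and a CFX over control difference of −0.15. TNS4, which encodes a tensin of focal adhesions, was at 5.39 with Mt-CFX, 6.16 with CFX and 6.13 in the control, differences of −0.74 and 0.03. Both were thus past 1.5-fold lower with Mt-CFX, a size reached by 1.25% of all genes in that direction, whereas TOP2A was at −0.30. The genes on its other side, GJD3 and RARA, were not analysed here. NGLY1, the next gene to TOP2B at higher coordinates, differed by 0.10 with Mt-CFX and 0.00 with CFX. FLII and SHMT1, on either side of TOP3A beyond the unmeasured MIEF2 and SMCR8, differed by −0.03 and −0.17 with Mt-CFX. DHX35, near TOP1, differed by −0.14 with Mt-CFX, and VPREB1, near TOP3B, by 0.16. RBM4B and PC, near TOP6BL, had equal values on all 3 arrays, and ZNF280B, also near TOP3B, was below the floor. These neighbours were looked at after the values of TOP2A were known, and no test of position was made.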
